A study of Rattus norvegicus with 5 samples.

Results

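The genes described here build, cross-link and move the actin cytoskeleton and anchor it to the matrix at focal adhesions. They number 55, named by symbol, and each was found on the array by matching the RefSeq accession of its probe to the rat gene symbol. A probe was matched for 51 of them among 15154 genes measured in all, and 4 (Diaph1, Rock1, Cnn2 and Pxn) had no matched probe. FRT cells, 1 epithelial line from Fischer rat thyroid, grew for 5 days either as confluent 2D monolayers or inside Matrigel, an extract of basement membrane, where they form 3D follicles. RNA of 4 separate 3D cultures, labelled with Cy5, was hybridized to Agilent 2-colour rat arrays, each time against 1 pool of RNA from 4 2D cultures in Cy3. A 5th array carried the dyes in reverse, Cy5 on the pooled 2D RNA and Cy3 on pooled 3D RNA. The labels give no treatment or genetic change for either side. Because the 2D RNA was pooled, the spread between 2D cultures was not measured, and the swapped array holds no independent culture.

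Actin filaments are built from monomers that profilin delivers and cofilin removes, and the Arp2/3 complex starts branches on existing filaments. Tropomyosins, calponins and caldesmon coat filaments and set their access to non-muscle myosin II, which slides them and is switched on when its light chains are phosphorylated. Small GTPases direct these machines. Focal adhesions tie the filaments to integrins through talin, vinculin, zyxin and the complex of integrin-linked kinase, PINCH and parvin. In epithelium of the thyroid follicle, actin is known to form a belt under the apical junctions.

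All values are log2 ratios of 3D over 2D, in which 0 is no difference and 1 is a doubling in 3D, and a gene passed where limma gave an adjusted p under 0.01 across all genes on the 5 arrays. Ratios of all genes correlated with r of 0.871 to 0.946 between replicate arrays and of 0.734 to 0.764 between these and the swapped array. The epithelial label was borne out by the marker list, since 7 of 7 epithelial genes lay well above background on all 5 arrays, in 3D and in 2D. Of the 6 thyroid markers, Pax8 and Foxe1 were above background on all arrays, whereas Tg, Tshr and Nkx2-1 were not on any. All 4 leukocyte markers lay at background in both conditions. Of 4 endothelial markers, Cdh5 was above background on 5 arrays in 3D and 3 in 2D, and 3 were above it in neither condition. Of 10 fibroblast and smooth muscle markers, 4 (Dcn, Lum, Thy1 and Pdgfrb) were above background in neither condition and 3 (Col1a1, Col3a1 and Pdgfra) in both on all 5 arrays. Col1a2 and Myh11 were above it on 5 arrays in 3D and 4 in 2D, and Des on 1 in each. Pdgfra rose by 0.55 in 3D (limma adjusted p = 6.81e-06), and the part of such cells in the values below was not tested. In bulk RNA, fewer cells of a type and less RNA per cell cannot be told apart.

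Among the 51 genes measured, 9 rose in 3D, 11 fell and 31 did not pass. Of all genes on the array 14.4% passed as higher and 11.4% as lower, against 17.6% and 21.6% of these 51. They are an abundantly expressed group, with 42 of 51 (82.4%) above background in both conditions on all arrays, as against 50.1% of all genes. Among genes expressed to that degree, 26.7% passed as higher and 22.1% as lower, and the 42 gave 21.4% and 26.2%. The share that passed was thus near that of other expressed genes, and so was the median size of the difference, 0.21 against 0.22. None of the 51 differed by 2-fold or more. The falls reached from 1.14-fold (Cfl1) to 1.69-fold (Cnn3) and the rises from 1.16-fold (Enah) to 1.61-fold (Cttn). The 31 that did not pass lay between -0.20 and 0.33, with 95% intervals reaching at most -0.35 and 0.52. With loess replaced by median centring of each array, limma passed 0 of the 51 and also 0 of all 15154 genes. Of the 51, 9 had an unadjusted p under 0.05 there. In that fit 9 of the 11 falls turned to values above 0, Cnn3 and Lims1 being the exceptions.

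**Figure D1:**
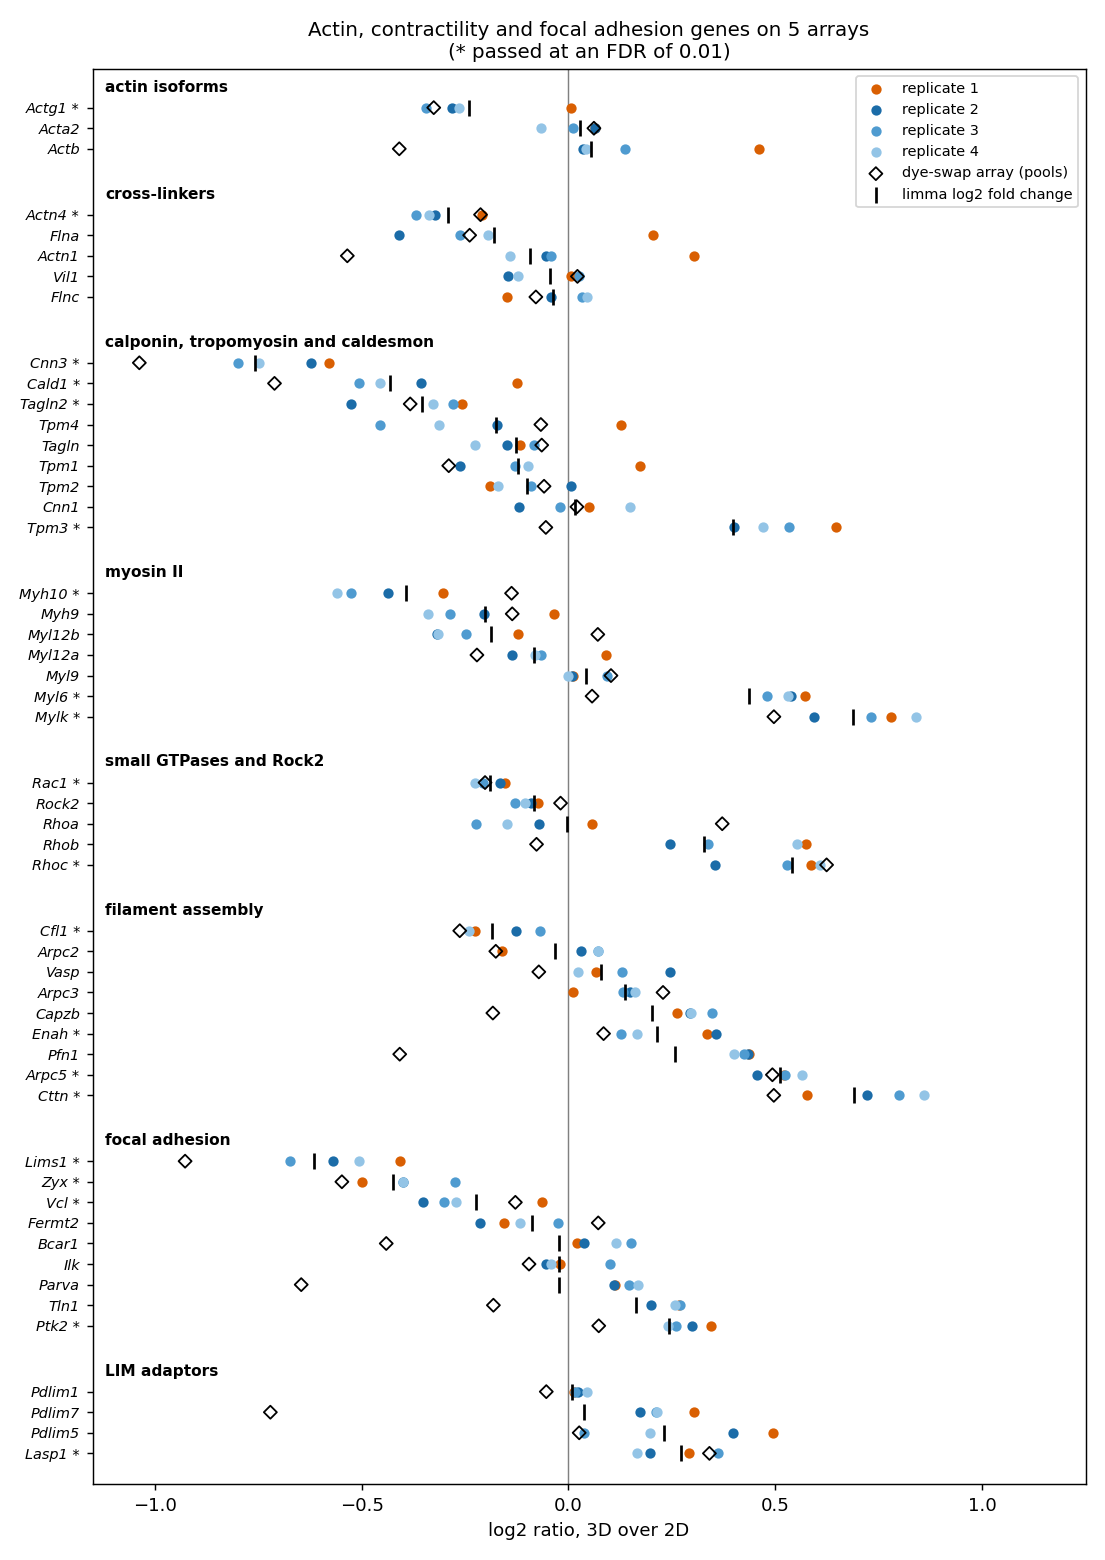
Log2 ratios of 3D over 2D (horizontal axis) for the 51 measured genes, grouped by role, with filled circles for the 4 replicate arrays, diamonds for the dye-swap array of pools and ticks for the log2 fold change over the 5 arrays. Asterisks mark the 20 genes that passed, and values run from -1.04 for Cnn3 on the swapped array to 0.86 for Cttn in replicate 4.

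Of the 3 actin genes, cytoplasmic gamma-actin fell and the other two did not pass. Actg1, which encodes gamma-actin, had log2 ratios of 0.01, -0.28, -0.34 and -0.26 in replicates 1 to 4 and -0.33 on the swapped array. Replicate 1 stood near 0 while the other 4 arrays were lower in 3D, and the fit gave a fall of 0.24 (SE 0.06, limma adjusted p = 0.00765). The call was lost without the swapped array or any 1 of replicates 2 to 4 (values of -0.24 to -0.22). A second probe for the gene gave a mean of -0.33. Beta-actin (Actb), often used as a loading reference, gave 0.46 in replicate 1 but 0.04, 0.14 and 0.04 in the others and -0.41 on the swapped array. These arrays point both ways, and its fitted value was 0.05 (95% interval -0.17 to 0.28). Smooth muscle alpha-actin (Acta2) was above background on 5 arrays in 3D and 2 in 2D, at 0.03. The transcripts of Actb and Actg1 share nearly identical coding sequence, and whether the probes tell them apart was not tested.

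Actin genes are classical targets of serum response factor, which binds the CArG box. The Actg1 promoter is shown because it holds this motif, and the capitals mark the motif, which begins at position -90 from the gene start. Whether the motif bears on the fall of Actg1 was not tested. The stretch covers chr10:106120977-106121096 on the minus strand of GRCr8, from RefSeq.
Actg1: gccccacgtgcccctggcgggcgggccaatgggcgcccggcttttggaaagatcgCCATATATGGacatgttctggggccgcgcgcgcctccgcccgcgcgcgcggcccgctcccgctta
Searched as CC, 6 bases of A or T, then GG, in the window from 250 bases before to 50 bases after the gene start, the CArG box was found in 2 of the 55 promoters (3.64%), those of Actg1 and Cnn2, and in 548 of 33469 promoters of the table (1.64%). The motif reads the same way on both strands as a pattern. A match is a description of these letters and not a binding site. The factor itself, Srf, did not pass, at 0.05 with 4 replicate values of 0.08 to 0.18 and -0.21 on the swapped array.

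The cross-linkers bundle filaments or join them into nets, and 1 of the 5 measured passed. Alpha-actinin-4 (Actn4), an actinin of non-muscle cells, had ratios of -0.21, -0.32, -0.37 and -0.34 in the replicates and -0.21 on the swapped array. All 5 arrays were lower in 3D, by 0.29 in the fit (SE 0.04, limma adjusted p = 0.000513). Filamin A (Flna), which joins filaments at right angles, gave 0.20 in replicate 1 against -0.41, -0.26 and -0.19 in replicates 2 to 4 and -0.24 on the swapped array. It did not pass at -0.18, and without replicate 1 it passed, at -0.28. Alpha-actinin-1 (Actn1) likewise had its only positive value in replicate 1, at 0.30, and its lowest on the swapped array, at -0.53. Flnc and the brush border bundler Vil1 were at background in both conditions.

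Of the filament-coating proteins, 3 of 9 measured fell and 1 rose. Calponin-3 (Cnn3), a calponin of non-muscle cells, gave -0.58, -0.62, -0.80 and -0.75 in replicates 1 to 4 and -1.04 on the swapped array. It was lower in 3D on all 5 arrays and showed the largest difference of the 51, a fall of 0.76 (SE 0.06, limma adjusted p = 1.48e-05). Caldesmon (Cald1), which holds myosin off the filament, gave -0.12, -0.36, -0.51 and -0.45, with -0.71 on the swapped array. Replicate 1 was again the least changed, and the fitted fall was 0.43 (SE 0.07, limma adjusted p = 0.00127). Transgelin-2 (Tagln2), a calponin relative, had ratios of -0.26, -0.53, -0.28 and -0.33, and -0.38 on the swapped array. All were below 0, with a fall of 0.35 (SE 0.05, limma adjusted p = 0.000318).

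Tropomyosin-3 (Tpm3) went the other way on the replicate arrays only. Its ratios of 0.65, 0.40, 0.53 and 0.47 in replicates 1 to 4 stood against -0.05 on the swapped array. The fit counted it as a rise of 0.40 (SE 0.09, limma adjusted p = 0.00573). Its second probe, designed on another transcript of the gene, gave a mean of -0.19 and was below 0 on all 5 arrays, and with the mean of both probes, or without any 1 of the 4 replicates (values of 0.34 to 0.40), the gene did not pass. Of the other tropomyosins, Tpm1 (-0.12) and Tpm4 (-0.18) did not pass. Both had a value above 0 in replicate 1 and below 0 on the other 4 arrays. A second Tpm1 probe, designed on another transcript of the gene, was below 0 on all 5 arrays, with -0.18 in replicate 1. The muscle forms Tpm2, Cnn1 and Tagln were at background in both conditions.

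Of the 7 myosin II genes, the motor activator and a light chain rose while 1 heavy chain fell. Myosin light chain kinase (Mylk), which phosphorylates the regulatory light chain, had ratios of 0.78, 0.59, 0.73 and 0.84 in replicates 1 to 4 and 0.50 on the swapped array. All 5 arrays were higher in 3D, by 0.69 (SE 0.06, limma adjusted p = 1.01e-05), although its second probe gave a mean of 0.26. The essential light chain Myl6 gave 0.57, 0.54, 0.48 and 0.53 in replicates 1 to 4, with 0.06 on the swapped array. The replicates were close together and the swap lower, with a rise of 0.44 (SE 0.07, limma adjusted p = 0.00117). With a term for the dye the rise was 0.29. The heavy chain of myosin IIB (Myh10) gave -0.30, -0.44, -0.53 and -0.56, with -0.14 on the swapped array. It fell by 0.39 (SE 0.06, limma adjusted p = 0.000892).

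Myh9, the heavy chain of myosin IIA, was below 0 on all 5 arrays, from -0.34 in replicate 4 to -0.04 in replicate 1, and did not pass at -0.20. It passed at -0.24 without replicate 1, at -0.22 without the swapped array and at -0.25 in the log2 table that the authors deposited. The regulatory light chains Myl12a (-0.08) and Myl12b (-0.19) did not pass either, and the smooth muscle form Myl9 was at background. Myl12a passed in the deposited table, at -0.21, and Myl12b without the swapped array, at -0.25. A second Myl12a probe had a mean of -0.20.

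The small GTPases of the set did not share a direction, with Rhoc higher and Rac1 lower in 3D. RhoC (Rhoc), a close relative of RhoA, gave 0.59, 0.35, 0.53 and 0.61 in replicates 1 to 4 and 0.62 on the swapped array. All 5 arrays were higher in 3D, by 0.54 (SE 0.05, limma adjusted p = 2.17e-05). Rac1, which drives branched actin at the cell edge, gave -0.15, -0.17, -0.21, -0.23 and, on the swapped array, -0.20. These values lay close together, and the fall was small at 0.19 (SE 0.04, limma adjusted p = 0.00309) and did not pass without any 1 of replicates 2 to 4 (values of -0.20 to -0.18). RhoB (Rhob), an endosomal relative, had the largest value of those that did not pass, 0.33, from 0.24 to 0.57 in the replicates and -0.08 on the swapped array. RhoA itself (Rhoa) stood at -0.003, with 0.37 on the swapped array and -0.22 to 0.06 in the replicates. The kinase Rock2, which acts downstream of RhoA, was at -0.08 and did not pass.

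Of 9 genes of filament assembly, 3 rose and 1 fell. Cortactin (Cttn), which stabilizes branched actin, gave 0.58, 0.72, 0.80 and 0.86 in replicates 1 to 4 and 0.50 on the swapped array. All 5 arrays were higher in 3D, with a rise of 0.69 (SE 0.06, limma adjusted p = 1.31e-05). Its other two probes had means of 0.36 and 0.06. The Arp2/3 subunit Arpc5 gave 0.52, 0.46, 0.52 and 0.56 and, on the swapped array, 0.49. It had the smallest SE of the genes that rose, with a rise of 0.51 (SE 0.04, limma adjusted p = 6.7e-06). The other subunits in the set, Arpc2 at -0.03 and Arpc3 at 0.14, did not pass, and the difference between subunits was not tested.

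Enah, which extends filaments at their growing ends, had ratios of 0.33, 0.36, 0.13 and 0.17 in the replicates and 0.09 on the swapped array. Its rise of 0.21 (SE 0.05, limma adjusted p = 0.00981) lay just inside the threshold. It did not pass with a dye term or without any 1 of the 4 replicates (values of 0.18 to 0.24), and was lost under 10 of the 13 alternative settings. Cofilin-1 (Cfl1), which severs filaments, gave -0.22, -0.13, -0.07 and -0.24 and -0.26 on the swapped array. Its fall of 0.18 (SE 0.04, limma adjusted p = 0.00899) also lay close to the threshold and was lost without any 1 of the 5 arrays (values of -0.21 to -0.17). Profilin-1 (Pfn1) is treated with the swapped array below, and Capzb and Vasp did not pass, at 0.20 and 0.08.

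At focal adhesions, 3 of the 9 genes measured fell and 1 rose. PINCH-1 (Lims1), the adaptor that binds integrin-linked kinase, gave -0.41, -0.57, -0.67 and -0.51 in replicates 1 to 4 and -0.93 on the swapped array. All 5 arrays were lower in 3D, by 0.62 (SE 0.07, limma adjusted p = 8.96e-05). The other partners of that complex did not pass, Ilk at -0.02 and Parva at -0.02. Zyxin (Zyx), which gathers at adhesions under tension, gave -0.50, -0.40, -0.27 and -0.40, with -0.55 on the swapped array. It fell by 0.42 (SE 0.05, limma adjusted p = 9.64e-05) on its brightest probe, whereas a second probe for the same transcript had a mean of 0.17. With the mean of both probes it did not pass.

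Vinculin (Vcl), which joins talin to actin, gave -0.06, -0.35, -0.30 and -0.27 in the replicates and -0.13 on the swapped array. The fall was 0.22 (SE 0.05, limma adjusted p = 0.00732). It did not pass with a dye term or without any 1 of replicates 2 to 4 (values of -0.21 to -0.19), and its second probe stood at 0.01. Focal adhesion kinase (Ptk2) gave 0.34, 0.30, 0.26 and 0.24 in replicates 1 to 4 and 0.07 on the swapped array. It rose by 0.24 (SE 0.05, limma adjusted p = 0.00293), and the call was lost without any 1 of the 4 replicates (values of 0.22 to 0.24). Talin (Tln1), Bcar1 and Fermt2 did not pass, at 0.16, -0.02 and -0.09, and Fermt2 was above background on 3 arrays in each condition.

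Of the 4 LIM adaptors, 1 passed. Lasp1 gave 0.29, 0.20, 0.36 and 0.17 in the replicates and 0.34 on the swapped array. All were above 0, with a rise of 0.27 (SE 0.04, limma adjusted p = 0.00103), while its second probe had a mean of 0.03. With the mean of both probes it did not pass, at 0.15. Pdlim5 (0.23) and Pdlim7 (0.04) did not pass and Pdlim1 was at background.

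Of the 20 genes that passed, 18 had the same sign on all 5 arrays, the exceptions being Actg1 in replicate 1 and Tpm3 on the swapped array. These signs are no separate test, since the fit used the same 5 arrays. On the whole array 3805 of the 3916 genes that passed had the same sign on all 5. Arpc5, Cnn3, Cttn, Lims1, Mylk and Rhoc passed under 12 of the 13 alternative settings, all but median centring. The other 14 were lost under at least 1 more. Without replicate 2, without replicate 3 or without replicate 4, 6 genes rose and 7 fell. Without replicate 1, 6 rose and 12 fell. The genes that passed on the whole array also became fewer, from 3916 to between 3000 and 3303.

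Replicate 1 was next compared with the other 3 cultures. It differed from the mean of replicates 2 to 4 by 0.5 or more in 0 of the 51 genes, against 0.568% of all genes with replicate 1 lower and 0.304% with replicate 1 higher. The smaller differences nevertheless ran mostly one way. Among the 42 expressed genes, replicate 1 had the highest ratio of the 4 cultures in 26 (61.9%) and the lowest in 6 (14.3%), where 31.3% and 33% of all expressed genes did so. The median difference over the 42 was 0.11, against -0.01 over all expressed genes. These are counts over genes that share 1 array, and no p is given for 1 culture against 3.

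Genes that passed were then taken by direction. In 9 of the 11 genes that fell, replicate 1 was the least lowered of the 4 cultures, against 37.8% of all genes that fell, and the median of the 11 was -0.22 in replicate 1 and -0.36, -0.34 and -0.34 in the others. The exceptions were Zyx, the most lowered in replicate 1, and Cfl1. Of the 9 genes that rose, replicate 1 was the lowest in 1 (Cttn), against 37.4% of all genes that rose. The largest offsets belonged to genes that did not pass, Flna at 0.49, Tpm4 at 0.44, Actb at 0.39, Actn1 at 0.38 and Tpm1 at 0.34. Whether the culture or the array gave this offset cannot be told apart, since each culture lay on 1 array.

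**Figure D2:**
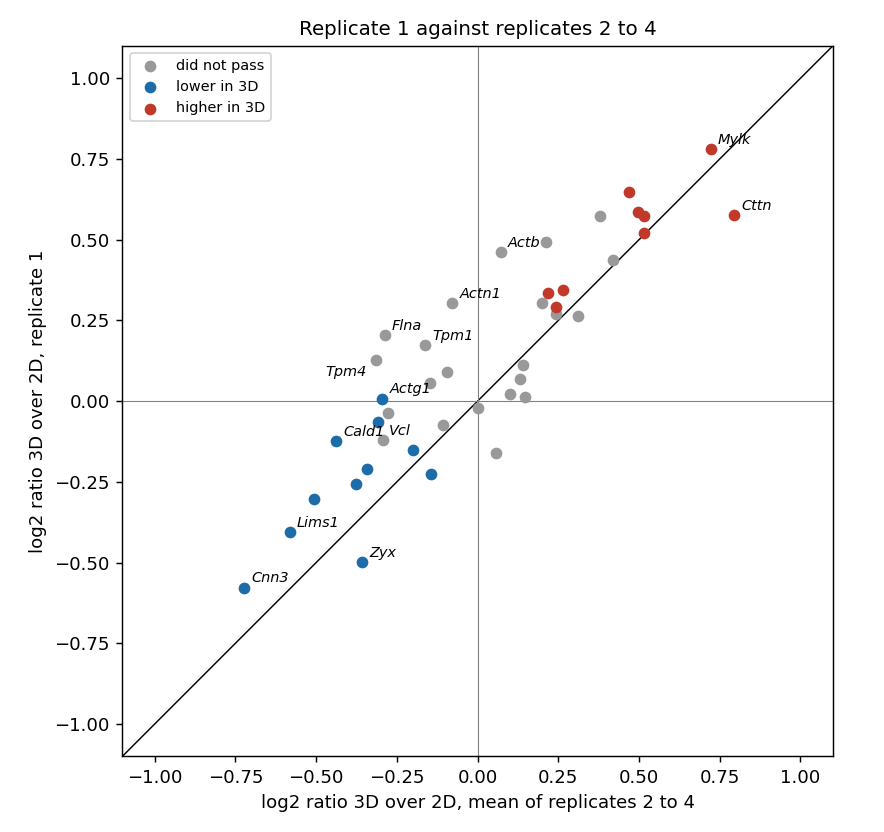
Log2 ratio of 3D over 2D in replicate 1 (vertical axis) against the mean of replicates 2 to 4 (horizontal axis) for the 42 genes above background on all arrays, coloured by the result of the fit, with the line of equal values. Of these, 26 have replicate 1 above all 3 other replicates, among them Flna, Tpm4, Actb, Actn1 and Tpm1, and Cttn lies below the line.

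The swapped array, with pools of the same RNA in opposite dyes, checks whether a ratio follows the RNA or the dye. It lay below all 4 replicate arrays in 26 of the 42 expressed genes (61.9%), against 37.3% of all expressed genes. In 11 of the 42 it had the opposite sign to all 4 replicates (26.2%), against 15.2%. Over the 42 genes the median was -0.16 on the swapped array and 0.10, -0.01, 0.05 and -0.01 in replicates 1 to 4. The median of all expressed genes was -0.01 on the swapped array.

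Profilin-1 (Pfn1), which feeds monomers to growing filaments, was one of the 3 genes in which the dye effect passed. Its ratios were 0.44, 0.43, 0.42 and 0.40 in replicates 1 to 4 and -0.41 on the swapped array. The replicates hardly differed from each other, and the gene did not pass at 0.26. In a limma fit with a dye term its 3D over 2D value was 0.01, and the dye effect of 0.42 passed (adjusted p = 0.00192). Alpha-parvin (Parva), the actin-binding partner of integrin-linked kinase, gave 0.11, 0.11, 0.15 and 0.17 in the replicates and -0.65 on the swapped array. Pdlim7, an actinin-binding LIM protein, gave 0.30, 0.17, 0.21 and 0.21 and then -0.72. For both the dye effect passed, at 0.39 (limma adjusted p = 0.00241) for Parva and 0.47 (limma adjusted p = 0.00181) for Pdlim7. These 3 of 51 (5.88%) compare with 1.87% of all 15154 genes, expressed or not, in which the dye effect passed. The share among expressed genes was not counted. With 1 swapped array, the dye and any other property of that array or of its 3D pool cannot be told apart.

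With the dye term, 8 genes were higher in 3D and 12 lower, where 13.9% and 12.1% of all genes were. Enah and Vcl no longer passed. Parva and Pdlim7 passed as lower, at -0.26 and -0.25, although all 4 of their replicate arrays were above 0. Without the swapped array, 15 genes passed as higher and 11 as lower, where the share of all genes that passed also grew, to 18.9% as higher and 14.4% as lower. The genes gained as higher were Pfn1 (0.42), Rhob (0.43), Capzb (0.30), Pdlim5 (0.28), Tln1 (0.25) and Pdlim7 (0.23), those gained as lower Myl12b (-0.25) and Myh9 (-0.22), and Actg1 and Cfl1 were lost. On its brightest probe Pdlim7 therefore took either direction with the handling of 1 array. Its second probe was below 0 on all 5 arrays, from -0.65 in replicate 2 to -0.003 in replicate 1.

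**Figure D3:**
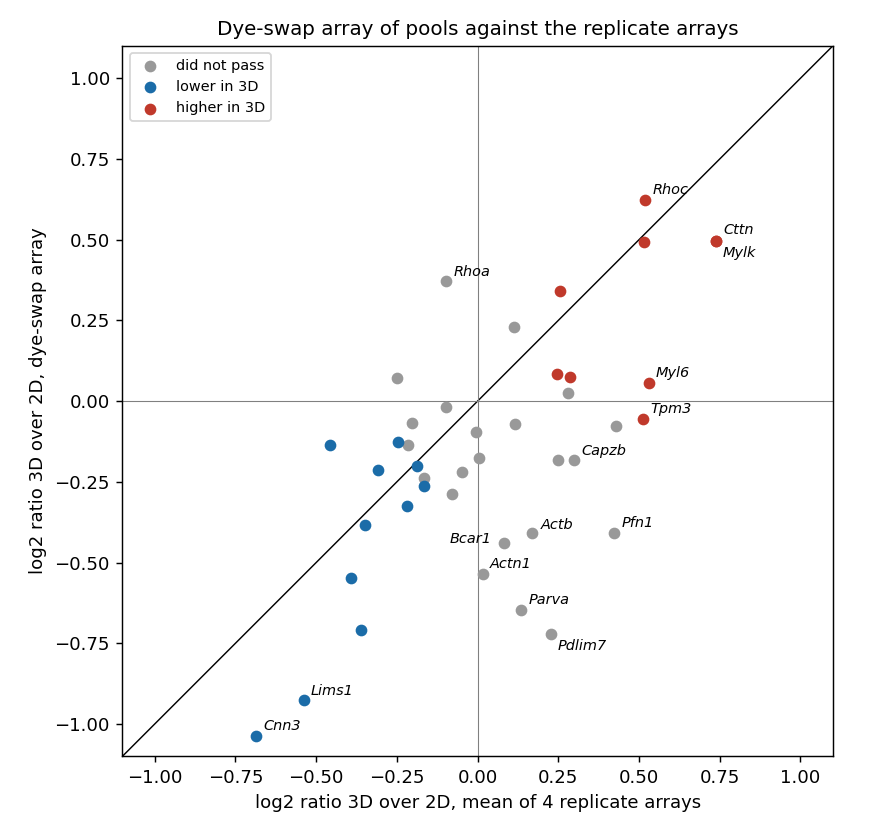
Log2 ratio of 3D over 2D on the dye-swap array of pools (vertical axis) against the mean of the 4 replicate arrays (horizontal axis) for the 42 genes above background on all arrays, coloured by the result of the fit, with the line of equal values. Pdlim7, Parva and Pfn1 lie right of 0 and below it, at -0.72, -0.65 and -0.41 on the swapped array, and Cnn3 and Lims1 are lowest on both axes.

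Most of the genes rest on 1 probe (37 of 51), and 14 had several. In 5 of the 14 another probe had a mean of the opposite sign, namely Tpm3, Zyx, Vcl, Pdlim7 and Bcar1. For Bcar1 both means lay near 0 (-0.02 and 0.004), and its probes had the same sign as each other on every array. The means of both probes stood close together for Cald1 (-0.43 and -0.48), Actg1 (-0.24 and -0.33) and Myl12b (-0.19 and -0.20). On the swapped array the Cald1 probes differed (-0.71 and -0.26). For Cttn, Mylk and Lasp1 the other probes had smaller means of the same sign. The second Lasp1 probe was below 0 in replicates 3 and 4 (-0.20 and -0.10). Tpm1 and Tpm3 each had probes designed on different transcripts of the gene, and the second probe was lower in both.

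**Figure D4:**
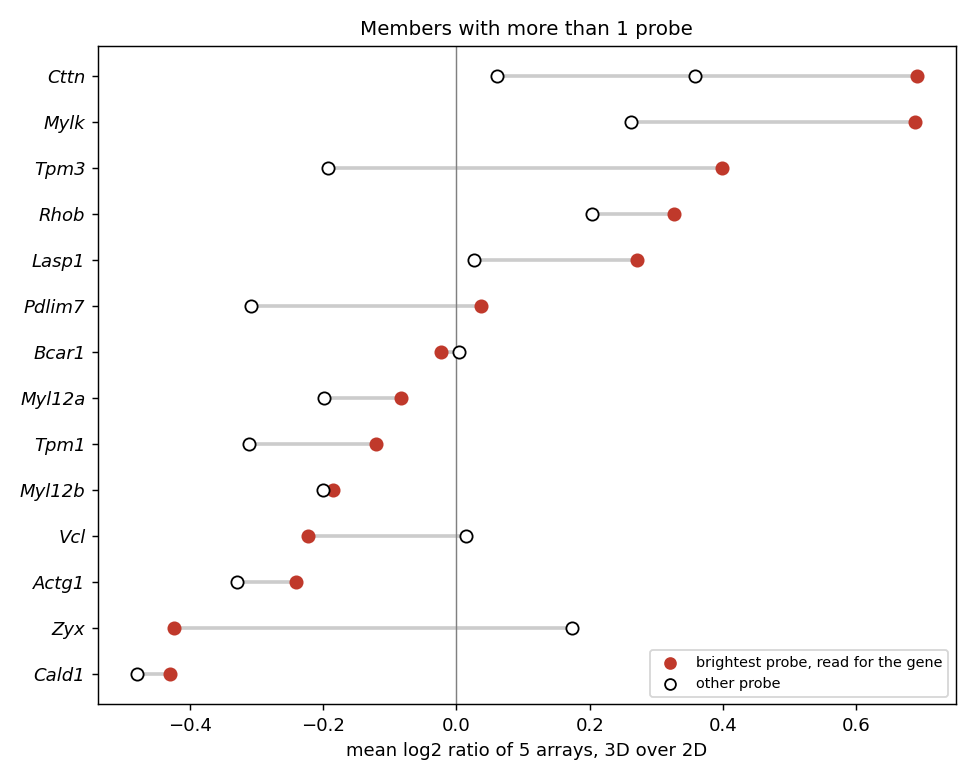
Mean log2 ratio of 3D over 2D over the 5 arrays (horizontal axis) for every probe of the 14 genes with more than 1 probe, filled for the brightest probe, which was read for the gene, and open for the others. The line at 0 separates the probes of Tpm3 (0.40 and -0.19), Zyx (-0.42 and 0.17), Pdlim7 (0.04 and -0.31) and, by small margins, Vcl and Bcar1.

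Other genes of the same machinery, 77 by name, were read in the same fit, and 63 were measured. Of these 15 rose, 9 fell and 39 did not pass, with a median of 0.02. Of all genes on the array 14.4% passed as higher and 11.4% as lower. Among genes above background in both conditions on all arrays the shares were 26.7% and 22.1%. Of the 63, 51 were above background to that degree. The largest rises were in Pfn2, the second profilin, at 0.96 (SE 0.05, limma adjusted p = 5.62e-07), the bundling protein plastin-3 (Pls3) at 0.87 (9.61e-07) and the LIM-only protein Fhl2 at 0.76 (4.04e-06). Pfn2 kept its sign on the swapped array, at 1.03 against 0.84 to 1.06 in the replicates, where Pfn1 did not. The largest falls were in Csrp1, a LIM protein of the filament, at -0.69 (limma adjusted p = 8.92e-06), the microtubule-bound RhoA activator Arhgef2 at -0.66 (4.15e-06) and the formin Daam1 at -0.60 (1.51e-05). For these 6 genes the swapped array lay between -0.81 and 1.03 and had the sign of all 4 replicates.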

How the data were processed

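RNA from FRT cells was measured on 5 arrays of 1 slide. The authors deposited spot and background intensities (median pixel values) read by Agilent Feature Extraction 10.7.3.1, unnormalized, and a value table of log2 ratios that, per the methods, the authors made with limma by normexp, loess and quantiles. Agilent's processed intensities, also deposited, served as an alternative.

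Here R 4.3.3 and limma 3.58.1 were used. Background was corrected by normexp (offset 50), which compresses ratios of dim probes. Ratios were normalized by loess with control and outlier spots at weight 0 and average intensities by quantiles. Outlier spots (1.12% to 1.6% per array) were left out and 0 spots were saturated. A probe was above background on an array where a share of 0.5 or more of its spots was. Of 30367 probes, 17998 (59.3%) matched a symbol in a RefSeq table of GRCr8 (the array was designed on rn4), and the brightest probe stood for its gene. The fit had 1 coefficient over 5 arrays, the swap's sign turned, with p-values adjusted (Benjamini-Hochberg) across 15154 genes and a threshold of 0.01 and a prior of 5.12 degrees of freedom. A second fit added a dye term. Intervals are 95%. The number of arrays limits the precision.

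Values on all arrays are given for the 20 genes with the largest change among those that passed. The same holds for genes with replicate 1 off by 0.5, and for genes that passed although the swap turned their sign. Other genes whose arrays are quoted were chosen after their values were seen. The genes and lists were chosen with earlier results of these data known. The fit was tested on simulated data. Alternatives were normexp with offset 0, Agilent's processed signals, median centring, the deposited log2 table, dim probes removed, the mean of all probes, outlier spots kept, a dye term, and each array left out.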

Additional observations from a re-analysis of the deposited data

Results flagged for a closer look

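The swapped array had the opposite sign to all 4 replicate arrays in 11 expressed genes. Its log2 ratio of 3D over 2D was -0.72 for Pdlim7, -0.65 for Parva, -0.44 for Bcar1, -0.41 for Actb, -0.41 for Pfn1, -0.18 for Capzb, -0.18 for Tln1, -0.0769 for Rhob, -0.0714 for Vasp and -0.0544 for Tpm3, where the replicates were above 0. It was 0.0712 for Myl12b, where they were below 0. In a fit with a dye term the difference passed in limma for Pfn1, Parva and Pdlim7 only. For the others it did not pass, with limma adjusted p of 0.0119 for Bcar1 and Capzb to 0.267 for Vasp.

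In 2 of the 51 genes, 1 replicate stood apart from the other 3. Tln1 had 0.20 in replicate 2, against 0.26 to 0.27 in the others. Myl9, at background, had 0.0936 in replicate 3, against -0.0003 to 0.0108. Chance gives this in about 1 of 20 groups.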

How the results depend on the processing

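Results are given for limma fits that changed 1 choice at a time. With normexp at offset 0, where 2222 genes of the array passed instead of 3916, 4 genes rose and 3 fell, 9 other pathway genes rose, and replicate 1 lay 0.5 or more below the others in 2 genes and above in 1. With Agilent's processed signals (2834 passed) 5 genes rose and 8 fell, 9 other pathway genes rose, and replicate 1 lay above in 1. Tagln, which lay at background, passed there as lower, at -0.83 against -0.79 for Cnn3. With median centring 0 genes rose and 0 fell, in the set and among the other pathway genes (9 of the set had an unadjusted p under 0.05), no gene of the array passed, and the set's median was 0.35 where that of all genes was -0.05. Values that turned there were Actg1 0.19, Actn4 0.24, Cald1 0.0201, Cfl1 0.15, Myh10 0.0699, Rac1 0.31, Tagln2 0.17, Vcl 0.28 and Zyx 0.0939. In the deposited table the set's median was -0.0715, with 7 rises and 13 falls, and 49.2% of all genes that passed were higher, as against 55.7%. Without the swapped array (5046 passed) 15 genes rose. With 1 replicate left out, the falls numbered 7 to 12. The cause of these shifts was not tested. Dim probes removed, outlier spots kept, the mean of all probes and the dye term left the counts of rises and falls within 1.5 times. No paired analysis was possible because the 2D cultures were pooled. Reading genes by a gene name column was not run, as the scanner tables used here hold accessions. Genes at background have no measured ratio.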
